A study of Mus musculus with 21 samples.

Results

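A set of 9 genes of lipid droplets and lipid storage was followed in mouse spinal cord after deletion of Tardbp, the gene of the RNA-binding protein TDP-43, from oligodendrocytes. They are Lpl, Fabp5, Soat1, Plin2, Plin3, Hilpda, Pnpla2, Lipa and Ch25h, and they were chosen by symbol with earlier results of these data known. Of these 9 genes, 8 have a value in every library, among 25127 genes in all, and Plin3 is described from the authors' deposited table alone. The study holds 21 libraries of total RNA from whole spinal cord of C57BL/6 mice, each from its own animal. Control mice carried 2 floxed Tardbp alleles (Tardbp-fl/fl) and no Cre. The heterozygotes (cHET) carried Cnp-Cre and 1 floxed allele (Tardbp-fl/+), and the knockouts (cKO) carried Cnp-Cre and 2 floxed alleles (Tardbp-fl/fl). No mouse is labelled as treated. There were 4 mice per genotype at postnatal day 21 (P21), 2 of them female and 2 male, all 21 days old. In the P60 set each genotype had 3 mice: the controls were female and 74 days old, the cHET males were 60, 63 and 65 days old, and the cKO males were 61, 61 and 64 days old. Every P60 comparison with the controls therefore also compares sexes and ages. The ages were also prepared with different library kits and scaled separately, so levels are not compared between ages, and age and kit cannot be told apart.

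A lipid droplet is a core of triglycerides and cholesteryl esters under a single phospholipid layer that is coated with proteins such as the perilipins. Fatty acids and sterols enter a cell by lipolysis of lipoproteins or by engulfment of debris, are esterified for storage, and are released again by lipases at the droplet or in the lysosome. In the nervous system droplets are known from glia that take up lipid, among them microglia that clear myelin, a membrane rich in cholesterol. Cnp-Cre, expressed from the Cnp locus, acts in oligodendrocytes and Schwann cells and not in all cells of the cord, and microglia are not among its targets. The RNA is from the whole cord, and a change in the number of cells of a type and a change in RNA per cell cannot be told apart.

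In cKO cord at both ages, Lpl, Plin2 and Ch25h were several times higher than in either other genotype, and Lipa was higher by a smaller factor. Soat1 and Pnpla2 rose at P21 and P60 in some comparisons and not in others, and Fabp5 and Hilpda did not pass in the main limma comparisons, though Fabp5 passed under some other settings. Plin3 was lower in cKO in the authors' deposited table. No gene of the set passed the test between cHET and control cord.

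Values are the authors' normalized scaled reads per base, a read abundance per base of transcript, so that levels can be set side by side between genes of one age. Tardbp was checked first. At P21 its mean was 2263 ± 115 reads per base in controls, 2141 ± 108 in cHET cord and 1751 ± 99.5 in cKO cord (SD, n = 4 each). At P60 it averaged 883 ± 54.5, 921 ± 13.3 and 803 ± 25.1 (SD, n = 3 each). Tardbp was lower in every cKO library than in every cHET library at both ages, by -0.29 at P21 (limma adjusted p = 0.00249) and by -0.20 at P60 (limma adjusted p = 0.0397, authors' q = 0.0633) on the log2 scale. Against controls it fell at P21 (-0.37, limma adjusted p = 3.26e-04), but at P60 the cKO and control libraries overlapped and the difference did not pass (-0.14, limma adjusted p = 0.142, authors' q = 0.246). Per-library sums ran from 26.9 M to 29.2 M at P21 and from 12.5 M to 13.8 M at P60 (M for 1e6), and read depth is unknown. Hox genes of the cord had summed values of 4591 to 13272 reads per base over the libraries. Within each age, every cKO library had a lower Hox sum than every other library. At P21 the highest cKO sum was 11002, below the lowest cHET (11397) and control (11534) sums. At P60 it was 4904, below 5209 (cHET) and 5508 (control). Summed forebrain markers were higher in every P60 cKO library (lowest 135) than in any P60 cHET (highest 117) or control library (highest 115). The cause of these group differences was not tested. Of the 21 libraries, 3 stood apart from their own group in markers of other tissue. The summed forebrain markers were 981 in P21 cHET replicate 1 against 234 to 269 in the other cHET. The erythrocyte sum was 42975 in P60 control replicate 1 against 8859 and 11062. The Schwann cell sum was 2376 in P60 cHET replicate 2 against 1239 and 1258. Results that change without these libraries are given without them.

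Promoter sequences are shown for Ch25h, Lipa and Plin2, which rose together at both ages and of which Ch25h and Lipa are neighbours on chromosome 19. Each is the 250 bases before the gene's start in RefSeq (GRCm38.p6), written 5′ to 3′ on the strand of the gene, and capitals mark a match to the C/EBP motif TTGCNNAA, which in Ch25h is on the opposite strand.
Ch25h (chr19:34475149-34475398, minus strand): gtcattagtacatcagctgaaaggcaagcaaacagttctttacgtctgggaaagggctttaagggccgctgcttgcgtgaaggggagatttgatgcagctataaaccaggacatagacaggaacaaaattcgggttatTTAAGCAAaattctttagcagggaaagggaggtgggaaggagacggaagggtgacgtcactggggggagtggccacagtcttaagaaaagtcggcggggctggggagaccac
Lipa (chr19:34527475-34527724, minus strand): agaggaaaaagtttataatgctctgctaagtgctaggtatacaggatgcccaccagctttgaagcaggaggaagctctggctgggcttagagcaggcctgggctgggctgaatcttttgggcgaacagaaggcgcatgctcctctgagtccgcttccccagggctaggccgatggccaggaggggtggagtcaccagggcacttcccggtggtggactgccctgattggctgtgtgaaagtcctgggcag
Plin2 (chr4:86670060-86670309, minus strand): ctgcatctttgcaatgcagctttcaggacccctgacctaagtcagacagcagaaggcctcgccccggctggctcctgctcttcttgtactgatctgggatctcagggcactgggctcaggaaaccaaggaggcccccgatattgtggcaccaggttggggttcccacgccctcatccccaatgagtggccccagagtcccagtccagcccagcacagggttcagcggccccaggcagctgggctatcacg

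A set of 9 motifs was searched on both strands in the promoters of the 7 genes that RefSeq's table holds, all but Lpl and Fabp5. TTGCNNAA was found in the Ch25h promoter, 112 bases before the start, and 9.56% of 32851 promoters of the same length hold it. The GC box GGGCGG was found 2 times before Pnpla2, 3 times before Plin3 and once in the window of the upstream start of Hilpda, and 32.7% of all promoters hold it. In the window of the downstream Hilpda start, which reaches into its transcript, the hypoxia response core ACGTG (held by 16.6% of promoters) and the AP-1 motif TGANTCA (6.75%) were found. The promoters printed for Lipa and Plin2, and that of Soat1, held none of the 9 motifs. The other motifs, found before none of the 7 genes, were the E-box CACGTG (6.02%), which contains ACGTG, the PPAR element of 2 AGGTCA copies spaced by 1 base (0.0335%), the LXR element of 2 AGGTCA copies spaced by 4 bases (0.0152%), the interferon element of 2 GAAA copies spaced by 2 bases (2.98%) and the PU.1 motif GAGGAAGT (2.44%). A match is a stretch of letters and not a measured binding site.

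Lpl encodes lipoprotein lipase, which frees fatty acids from lipoprotein triglycerides for uptake. It lies on chromosome 8 at 68880491 to 68907448 (plus strand, GRCm38, GENCODE M21, as for all positions of the genes here). At P21 it measured 361, 447, 389 and 434 reads per base in controls, 391, 436, 407 and 365 in cHET mice, and 3791, 4337, 3902 and 2667 in cKO. At P60 it measured 244, 216 and 201 in controls, 175, 218 and 266 in cHET mice, and 1526, 1426 and 1204 in cKO. Every cKO library lay far above every control and cHET library of its age, with cKO replicate 4 the lowest of its group at P21. Mean Lpl in cKO was 9.19-fold that of cHET at P21 (log2 difference 3.18, SE 0.13, limma adjusted p = 6.39e-10) and 6.30-fold at P60 (2.67, SE 0.15, limma adjusted p = 3.45e-07). Against controls the folds were 9.01 at P21 and 6.29 at P60. Between cHET and control Lpl differed by -0.03 at P21 (95% interval -0.29 to 0.24) and by -0.02 at P60 (-0.34 to 0.30).

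Fabp5, a cytosolic fatty acid binding protein, lies on chromosome 3 at 10012548 to 10016607 (plus strand) and had the highest level of the set in every group. Values at P21 read 12887, 13146, 14047 and 14029.5 reads per base in controls, 14184, 14292, 13388 and 15372 in cHET mice, and 14350.4, 14535, 15745 and 14962 in cKO. The P60 libraries gave 5132, 5194 and 5350.1 in controls, 5009, 4934 and 4848 in cHET mice, and 5489, 6157 and 5203 in cKO. The cKO libraries overlapped those of cHET at P21 and lay above all 3 of them at P60. Fabp5 in cKO was 1.04-fold of cHET at P21 (log2 difference 0.06, 95% interval -0.06 to 0.17, limma adjusted p = 0.497) and 1.14-fold at P60 (0.18, 0.04 to 0.33, limma adjusted p = 0.0594). The P60 difference sits at the threshold: in the authors' deposited table its q was 0.0202, and without P60 cKO replicate 3 the limma adjusted p was 0.0233, with array weights 0.0386 and in the fit of all 6 groups 0.0308. In 17 of 22 alternatives it did not pass. Against controls Fabp5 was 1.10-fold at P21 (0.14, limma adjusted p = 0.0728) and 1.07-fold at P60 (0.10, limma adjusted p = 0.292). At P60 the cKO libraries overlapped those of controls, and every cHET library lay below every control library. A processed pseudogene, Fabp5l2, reached at most 2.16 reads per base in any library.

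Soat1 encodes the acyltransferase that makes cholesteryl esters from free cholesterol, the step that sends sterol into droplets. Its position is chromosome 1 at 156424525 to 156474331 (minus strand). The P21 libraries gave 351, 257, 219 and 276 reads per base in controls, 201, 252, 345 and 217 in cHET mice, and 348, 428, 467 and 276 in cKO. The P60 libraries gave 155, 208 and 145 in controls, 152, 141 and 128 in cHET mice, and 247, 270.1 and 239 in cKO. At P21 the groups overlapped, with cKO replicates 1 and 4 among the control values and replicate 4 also among those of cHET. At P60, in contrast, every cKO library lay above every control and cHET library. Soat1 rose 1.80-fold against cHET at P60 (log2 difference 0.84, SE 0.14, limma adjusted p = 0.000916) and 1.49-fold against controls (0.59, limma adjusted p = 0.00865). At P21 the difference from cHET was 1.50-fold (0.58, SE 0.19, limma adjusted p = 0.0440), and the difference from controls, 1.38-fold, did not pass (limma adjusted p = 0.104), though it did with array weights (limma adjusted p = 0.0225) and without cKO replicate 4 (limma adjusted p = 0.0339). The P21 call against cHET was lost without P21 cHET replicate 1, the library with forebrain markers (0.48, limma adjusted p = 0.127), and in 11 of 25 alternatives in all. A gene model on the opposite strand, Gm37648, lies within Soat1, and whether the counting used strand is not given in the sources used here.

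Plin2 encodes perilipin 2, the coat protein found on droplets of most cell types and a common marker of them. It lies on chromosome 4 at 86648386 to 86670060 (minus strand), and its promoter is printed above. At P21 it measured 229, 214, 188 and 230.0 reads per base in controls, 192, 183, 192 and 227 in cHET mice, and 664, 636, 638 and 603 in cKO. At P60 it measured 98.9, 111 and 135 in controls, 119, 132 and 112 in cHET mice, and 330.0, 324 and 305 in cKO. The cKO libraries lay together and well above all others, with a coefficient of variation of 3.89% at P21 and 4.06% at P60. Plin2 rose 3.20-fold against cHET at P21 (log2 difference 1.68, SE 0.09, limma adjusted p = 1.13e-08) and 2.64-fold at P60 (1.40, SE 0.12, limma adjusted p = 1.01e-05). Against controls it rose 2.95-fold and 2.78-fold.

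Plin3 encodes perilipin 3, a coat protein that moves from the cytosol to young droplets and also takes part in endosomal transport. The gene is on chromosome 17 at 56277476 to 56292873 (minus strand) and has no per-library values among those used here. In the authors' deposited table Plin3 was 0.780-fold in cKO relative to cHET at P21 (log2 difference -0.36, SE 0.11, q = 0.00638) and 0.926-fold relative to controls (-0.11, q = 0.512). At P60 the authors' deposited table gave 0.323-fold relative to cHET (-1.63, SE 0.11, q = 3.78e-44) and 0.327-fold relative to controls (-1.61, q = 2.46e-43). So Plin3 fell in 3 of the 4 knockout comparisons of the authors' deposited table, the opposite direction from Plin2, and the difference between its P21 and P60 effects was not tested.

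Hilpda encodes a small droplet protein that is induced by hypoxia and inhibits the lipase encoded by Pnpla2. Its position is chromosome 6 at 29272488 to 29275446 (plus strand). The P21 libraries gave 90.4, 78.5, 82.5 and 108 reads per base in controls, 96.9, 97.0, 69.3 and 74.3 in cHET mice, and 104, 121, 98.7 and 117 in cKO. The P60 libraries gave 37.3, 50.2 and 41.8 in controls, 36.1, 37.5 and 54.1 in cHET mice, and 35.0, 49.2 and 34.2 in cKO. At P21 the 4 cKO libraries lay just above the 4 cHET libraries but not above all controls, and at P60 the 3 genotypes were mixed. The P21 difference from cHET was 1.30-fold (log2 difference 0.39, 95% interval 0.06 to 0.73, limma adjusted p = 0.0892), and at P60 it was 0.927-fold (-0.10, -0.59 to 0.39, limma adjusted p = 0.786).

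Pnpla2 encodes adipose triglyceride lipase, which begins the breakdown of droplet triglycerides. It lies on chromosome 7 at 141455198 to 141460743 (plus strand). At P21 it measured 1485, 1298, 1223 and 1246 reads per base in controls, 1579, 1775, 1686 and 1329 in cHET mice, and 2393, 2609.8, 1879 and 3156 in cKO. At P60 it measured 623, 761 and 739 in controls, 824, 913 and 644 in cHET mice, and 928, 1052 and 982 in cKO. All cKO libraries lay above all others of their age, though at P60 the gap between the lowest cKO and the highest cHET library was small. At P21 Pnpla2 rose 1.58-fold against cHET (log2 difference 0.64, SE 0.13, limma adjusted p = 0.00262) and 1.91-fold against controls (0.91, limma adjusted p = 1.3e-04). At P60 it rose 1.40-fold against controls (0.48, SE 0.12, limma adjusted p = 0.0140), a call lost without control replicate 1 (0.40, limma adjusted p = 0.0519) or without cKO replicate 2 (0.44, limma adjusted p = 0.0552). The P60 difference from cHET was 1.24-fold (0.33, limma adjusted p = 0.0778), and it passed without cHET replicate 2, the library with Schwann cell markers (0.44, limma adjusted p = 0.0305).

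Lipa encodes lysosomal acid lipase, which frees cholesterol and fatty acids from esters that reach the lysosome. The gene is on chromosome 19 at 34492318 to 34527474 (minus strand), and its promoter is printed above. At P21 it measured 1946, 2044, 1826 and 1714 reads per base in controls, 1993, 1843, 1857 and 1894 in cHET mice, and 2000.4, 2508, 3067 and 2147 in cKO. At P60 it measured 639, 649.7 and 705 in controls, 644, 682 and 662 in cHET mice, and 1350.0, 1327 and 1181 in cKO. At P21 cKO replicate 1 stood level with the highest cHET and control libraries and replicate 3 well above them, whereas at P60 all 3 cKO libraries were far above the rest. Lipa rose 1.28-fold against cHET at P21 (log2 difference 0.34, SE 0.11, limma adjusted p = 0.0332) and 1.94-fold at P60 (0.95, SE 0.07, limma adjusted p = 2.73e-06). The P21 call against cHET was lost in 7 of 25 alternatives, among them without cKO replicate 3 (0.22, limma adjusted p = 0.0724), without cKO replicate 2 (0.32, 0.0839) and without cHET replicate 2, 3 or 4. Against controls Lipa rose 1.29-fold at P21 (limma adjusted p = 0.0237), with overlapping libraries, and 1.94-fold at P60. That P21 call was lost without control replicate 3 (limma adjusted p = 0.0585) or 4 (0.0691) and without cKO replicate 2 (0.0612) or 3 (0.0509).

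Ch25h encodes cholesterol 25-hydroxylase, which makes the oxysterol 25-hydroxycholesterol, a signal that lowers sterol synthesis and promotes esterification. Its position is chromosome 19 at 34473778 to 34475164 (minus strand), next to Lipa, and the long noncoding gene Gm26902 overlaps it on the opposite strand. Values at P21 read 7.46, 5.10, 8.09 and 9.92 reads per base in controls, 5.33, 7.24, 23.5 and 9.96 in cHET mice, and 175, 263, 377 and 209 in cKO. Values at P60 read 2.67, 6.55 and 3.99 in controls, 9.69, 10.3 and 6.66 in cHET mice, and 73.2, 74.7 and 37.7 in cKO. Ch25h was the lowest gene of the set in control and cHET cord, and every cKO library lay above every other library of its age. Its fold against cHET was 22.2 at P21 (log2 difference 4.57, SE 0.39, limma adjusted p = 9.22e-07) and 6.98 at P60 (2.69, SE 0.39, limma adjusted p = 4.4e-04), the highest mean fold of the 8 genes at each age, though at P60 its interval (1.83 to 3.55) contains the value of Lpl. The P21 fold rests in part on cHET replicate 3, without which it was 34.1 (log2 difference 4.98). Against controls it was 33.5-fold and 14.1-fold higher. At P60 the 3 cHET libraries also lay just above the 3 controls, by 2.02-fold, but the difference did not pass (0.99, 95% interval 0.13 to 1.85, limma adjusted p = 0.906).

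**Figure D1:**
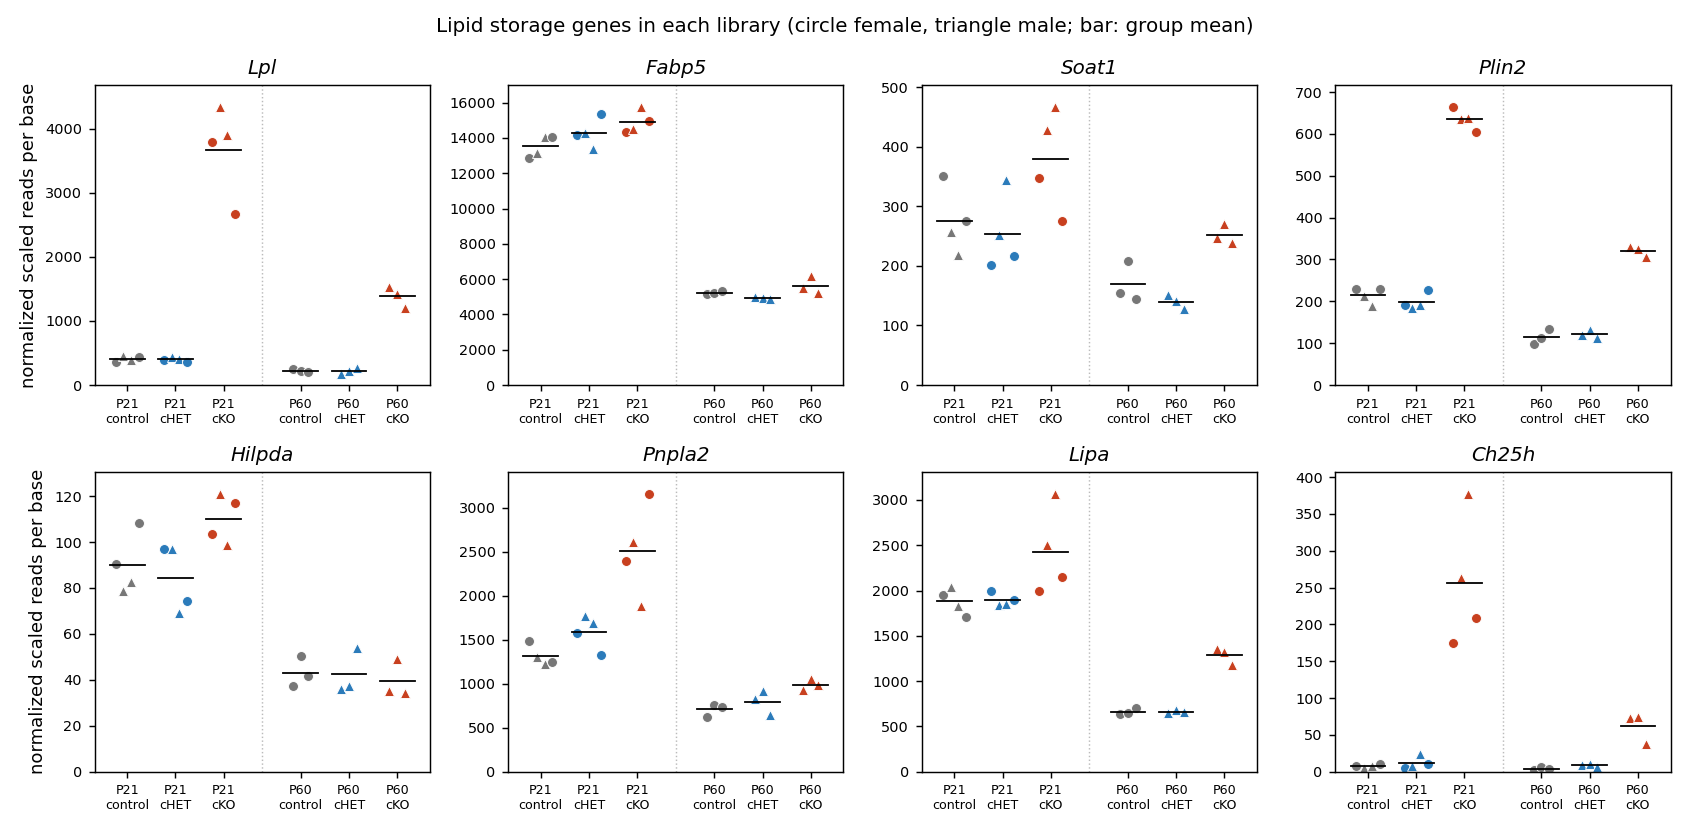
Normalized scaled reads per base (vertical axis, linear, from 0) of 8 lipid storage genes in each library, by age and genotype (circles female, triangles male, bars group means, P21 n = 4 and P60 n = 3 per group). The cKO libraries of Lpl, Plin2 and Ch25h stand clear of the control and cHET libraries of both ages, whereas those of Fabp5 and Hilpda lie at similar levels to them.

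The order of levels within P21 controls was Fabp5 (mean 13527 reads per base), Lipa (1883), Pnpla2 (1313), Lpl (408), Soat1 (276), Plin2 (215), Hilpda (89.9) and Ch25h (7.64). Of the neighbours in that order, Soat1 and Plin2 overlapped between libraries. In P21 cKO cord Lpl came next after Fabp5 (3674, against 14898), followed by Pnpla2 (2509), Lipa (2431), Plin2 (635), Soat1 (380), Ch25h (256) and Hilpda (110.1). There the libraries overlapped between Lpl and Pnpla2, between Pnpla2 and Lipa and between Soat1 and Ch25h. The spread within the cKO group was widest for Ch25h, with a coefficient of variation of 34.6% at P21 and 33.9% at P60.

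Read as a set, limma called 6 of the 8 genes as higher and 0 as lower in cKO against cHET at P21 (7 at an unadjusted p under 0.05, as were 33.2% of all genes), where 22.6% of 17989 genes tested were called in either direction, 12.6% as higher and 9.97% as lower. Their median log2 difference was 0.61, beside -0.01 over all genes tested. At P60 limma called 5 of the 8 genes as higher and 0 as lower (7 at an unadjusted p under 0.05, as were 35.8% of all genes), against 25.0% of 16833 genes called, 13.4% as higher and 11.5% as lower, with a median of 0.90 beside 0.00329. The libraries of cKO lay above those of cHET without overlap for 6 genes at P21, where 12.7% of all genes did so, and for 7 at P60, where 20.6% did. Against controls 5 of the 8 rose at P21 (26.9% of all genes called, 14.6% as higher and 12.3% as lower) and 6 at P60 (25.9%, 14.5% and 11.4%), and limma called 0 as lower at either age. By the authors' q, 6 of the 9 genes rose and Plin3 fell in cKO against cHET in the authors' deposited table at both P21 (23.8% of its genes called) and P60 (25.7%). The genes were chosen with earlier results of these data known, so these counts describe the set and do not test it.

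Between cHET and control, limma called 0 of the 8 genes at P21, where 0.0111% of all genes were called, and 0 at P60, where 0.0178% were. At an unadjusted p under 0.05 there were 0 genes at P21 (7.14% of all genes) and 1 at P60 (5.42%), Ch25h, and the authors' deposited table called 0 of the 9 at P21 (0.193% of its genes called) and 0 at P60 (0.0827%). The median log2 difference of the 8 genes was -0.01 at both ages.

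**Figure D2:**
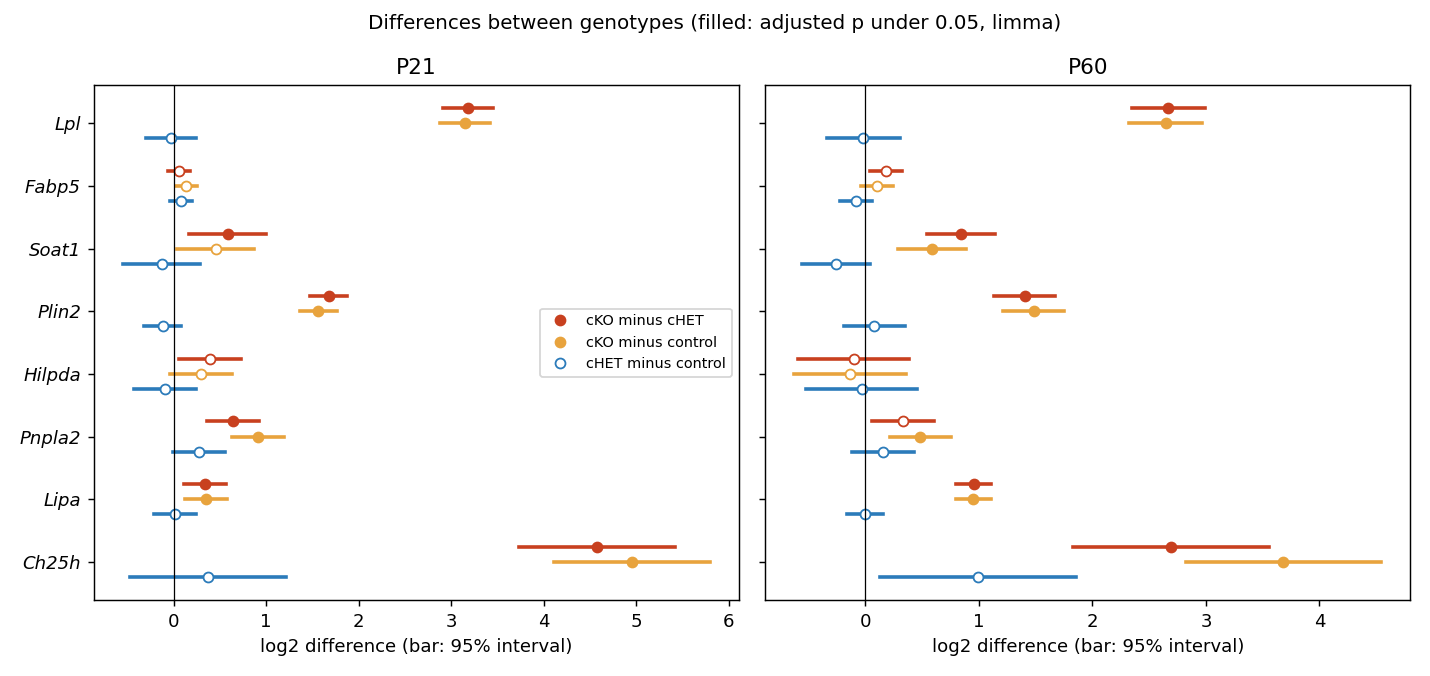
Log2 differences between genotypes (horizontal axis, bars 95% intervals) of the 8 genes at P21 and P60, with filled points for a limma adjusted p under 0.05. Against cHET (red) and against controls (orange) Lpl, Plin2 and Ch25h lie farthest to the right, and every difference between cHET and control (blue) is open.

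The size of the knockout effect was then compared between ages in a fit of all 21 libraries. Lipa was the 1 gene of the 8 whose effect differed: the cKO difference from cHET was greater at P60 than at P21 by 0.62 on the log2 scale (SE 0.14, limma adjusted p = 0.0180), where 3.20% of 16570 genes were called. Against controls the difference was 0.60 (SE 0.14, limma adjusted p = 0.0169), where 4.48% were called. Both calls were lost without P60 cKO replicate 1 (0.58, limma adjusted p = 0.0579, and 0.56, limma adjusted p = 0.0509). They were also lost when the 3 libraries that stood apart were all left out (0.61, limma adjusted p = 0.0771, and 0.57, limma adjusted p = 0.0594). Ch25h had a smaller effect at P60 in the point estimate, by -1.88 (95% interval -3.11 to -0.65, limma adjusted p = 0.0950) against cHET, and passed when P21 cHET replicate 3, its highest cHET library, was left out (-2.29, limma adjusted p = 0.0154). The value for Lpl was -0.51 (-0.94 to -0.08, limma adjusted p = 0.224), and it passed without P21 cKO replicate 4 (-0.66, limma adjusted p = 0.0424). For the difference between cHET and control, limma called 0 of the 8 genes as differing between ages, where 0.00% of all genes were called, and 0 at an unadjusted p under 0.05 (5.17% of all genes).

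**Figure D3:**
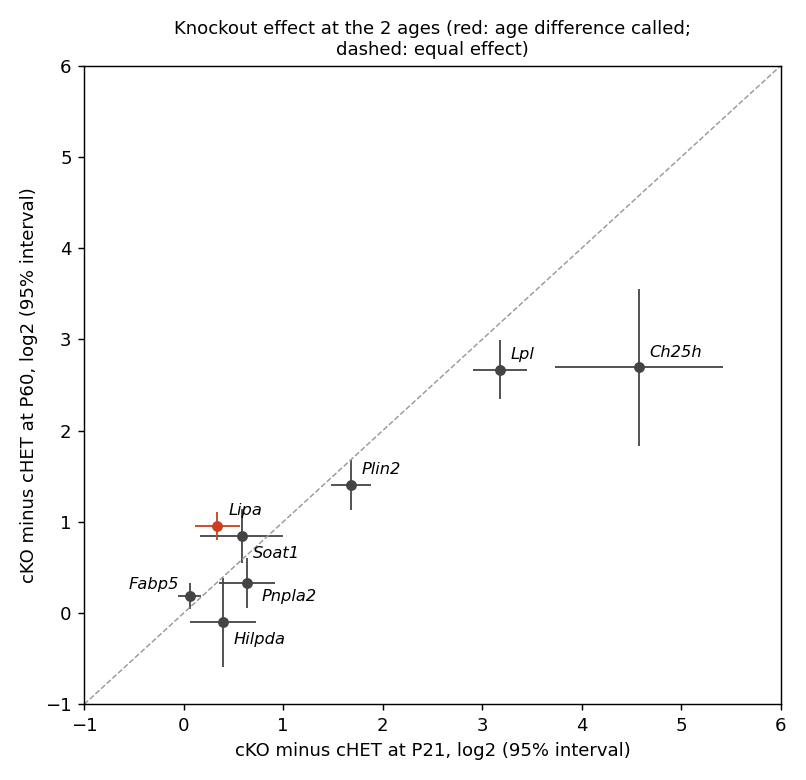
Log2 difference between cKO and cHET at P21 (horizontal axis) and at P60 (vertical axis) for the 8 genes, with 95% intervals and a dashed line of equal effect. Lipa, in red, lies above the line with the only called age difference (0.62). Soat1 and Fabp5 also lie above it, and Ch25h, Lpl, Plin2, Pnpla2 and Hilpda lie below it.

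Among the 4 P21 cKO mice, both males lay above both females for Lpl (4337 and 3902 against 3791 and 2667 reads per base), Soat1 (428 and 467 against 348 and 276), Lipa (2508 and 3067 against 2000.4 and 2147) and Ch25h (263 and 377 against 175 and 209). The sexes were mixed for the other 4 genes, for example Pnpla2 (males 2609.8 and 1879, females 2393 and 3156). The summed microglia markers had the same order (55748 and 53314 against 41232 and 39608). The share of all genes with such an order was not counted, and with 2 mice of each sex the order alone shows no sex difference. For a difference of the knockout effect between sexes, a test added after these values were seen, limma called 0 of the 8 genes against cHET (0.00556% of all genes called) and 0 against controls (0.00%). At an unadjusted p under 0.05 there were 2 genes against cHET (6.53% of all genes), Lipa with a greater effect in males (0.49) and Pnpla2 with a smaller one (-0.57), and 2 against controls (5.60%), Soat1 (0.92) and Lipa (0.34). With 2 mice of a sex per genotype the intervals are wide, for example -1.69 to 1.53 for Ch25h against cHET.

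Most markers of microglia, the macrophages of the cord, rose in cKO, as did Lpl, Plin2, Ch25h and Lipa. Of 10 microglia markers, 8 rose and P2ry12 fell in cKO against cHET at P21. At P60, 7 rose while P2ry12, Tmem119 and Siglech fell. The 10 markers summed to 39608 to 55748 reads per base in P21 cKO libraries against 12360 to 14193 in cHET, and to 17533 to 22634 in P60 cKO against 6243 to 6677. In single cKO libraries that sum was 3.01 to 4.24 times the cHET mean at P21 and 2.72 to 3.51 times at P60. The same ratio was 6.67 to 10.8 for Lpl and 15.2 to 32.8 for Ch25h at P21, and 5.48 to 6.94 and 4.25 to 8.42 at P60, so both rose by more than the marker sum in every cKO library. For Plin2 it was 3.04 to 3.34 at P21, above the marker sum in cKO replicates 1 and 4 and below it in replicates 2 and 3. At P60 it was 2.52 to 2.73 for Plin2, lower than the marker sum in every cKO library. For the other 5 genes it was lower than the marker sum in every cKO library of both ages. What part the number of microglia has in these differences was not tested.

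Markers of other cell types were also summed. The 10 markers of border macrophages and monocytes summed to 275 to 329 reads per base in P21 cKO against 161 to 270 in cHET, and to 239 to 286 in P60 cKO against 99.5 to 147 in cHET. The 8 adipocyte markers summed to 105 to 136 in P21 cKO and 97.8 to 219 in cHET, and to 38.7 to 59.5 and 29.5 to 47.8 at P60, with Lep at 0 in every cKO and cHET library and Adipoq at 0 in every P60 cKO library. The sum of 8 astrocyte markers was 301962 to 349253 in P21 cKO against 143067 to 154735 in cHET, and 122549 to 148824 against 56560.5 to 62558 at P60. Of these 8 markers, 6 were called as higher at P21 and 4 at P60, and 0 as lower. The sum of 6 oligodendrocyte precursor markers was 31304 to 43174 in P21 cKO against 23211 to 26225 in cHET, with 4 of the 6 called as higher, and 12270.5 to 13684 against 5361 to 6019 at P60, with all 6 called. The sum of 8 mature oligodendrocyte markers was lower, with 572739 to 671471 against 764650 to 845045 at P21 and 89177 to 111229 against 162707 to 183000.0 at P60. Of these 8 markers, 4 were called as lower and 2 as higher at P21, and 6 as lower and 2 as higher at P60. Their part in the differences was not tested.

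**Figure D4:**
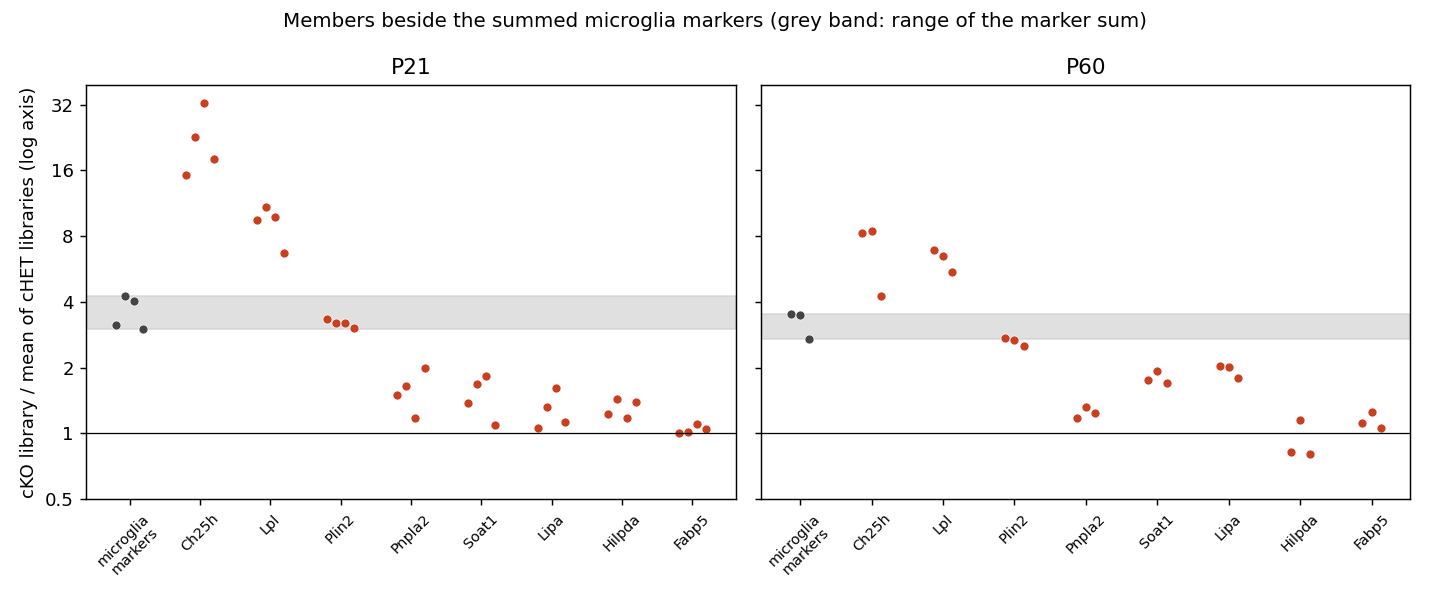
Each cKO library's value divided by the mean of the cHET libraries of its age (vertical log axis) for the summed microglia markers (grey points and band) and the 8 genes. Ch25h and Lpl lie above the band at P21 (3.01 to 4.24) and at P60 (2.72 to 3.51). Plin2 lies in the lower part of the band at P21 and at or below its lower edge at P60, and the other genes lie below it.

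Genes that work beside the 9 were counted from lists of each step, with the 9 left out, in cKO against cHET. These lists too were chosen with earlier results known, so their counts are a description and not a test. Over all genes 22.6% were called at P21 and 25.0% at P60, and several of the lists below, such as those of droplet coat, lipolysis and hypoxia-inducible genes at P21, held called genes at about that share. Among droplet coat and biogenesis genes, 2 rose and 2 fell of 12 tested at P21, and 2 rose and 2 fell of 11 at P60. Plin4, another perilipin, went from 481 ± 310 to 2041 ± 616 reads per base at P21 (SD, n = 4, log2 difference 2.45, limma adjusted p = 0.00397). At P60 Plin4 was tested and was not among the genes called as higher. Plin5, the perilipin of oxidative tissues, rose at P60 (0.86, limma adjusted p = 0.0319). Acsl3, an acyl-CoA synthetase that acts in droplet formation, fell at P21 (-0.38) and at P60 (-0.29), the droplet GTPase Rab18 fell at P21 (-0.15), and the droplet protein Aup1 rose at P21 (0.21) and P60 (0.25).

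Among genes of esterification and triglyceride synthesis, 3 rose and 2 fell of 12 at P21, and 5 rose and 2 fell of 12 at P60. Gpam, the first acyltransferase of glycerolipid synthesis, rose at P21 (0.60, limma adjusted p = 0.00243) and at P60 (0.78, limma adjusted p = 9.65e-06). Agpat2, the next acyltransferase, rose from 31.4 ± 9.88 to 89.8 ± 17.7 at P21 (SD, n = 4, 1.53), and Lpin3, a phosphatidate phosphatase, from 112 ± 18.5 to 313 ± 99.1 (1.44). Dgat2, which completes triglycerides, rose at P60 (0.94, limma adjusted p = 4.12e-05). The acyl-CoA synthetases Acsl1 (-0.43 at P21, -0.57 at P60) and Acsl4 (-0.40 and -0.49) fell.

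Of 7 lipolysis genes tested at P21, 0 rose and 2 fell by limma, and of 6 at P60, 1 rose and 2 fell. Lipe, hormone-sensitive lipase, fell at P21 (log2 difference -0.30) and at P60 (-0.79). Abhd5, the activator of the lipase encoded by Pnpla2, fell at both ages (-0.40 and -0.49), while Pnpla2 itself rose at P21. Mgll, monoacylglycerol lipase, rose at P60 (0.39, limma adjusted p = 0.0138).

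Among lipid uptake receptors and partners of lipoprotein lipase, 5 rose and 3 fell of 11 at P21, and 2 rose and 3 fell of 11 at P60. The scavenger receptor gene Msr1 rose from 5.43 ± 3.93 to 62.5 ± 19.4 at P21 (SD, n = 4, 3.71) and from 1.89 ± 2.38 to 36.6 ± 5.15 at P60 (SD, n = 3, 4.53). Cd36, another, rose from 19.4 ± 5.93 to 57.7 ± 16.1 at P21 (SD, n = 4, 1.57), and its P60 difference, with overlapping libraries, did not pass (1.76, limma adjusted p = 0.103). Vldlr, a lipoprotein receptor, fell at P21 (-0.37) and at P60 (-0.56). Lrp1, a receptor for apolipoprotein E, rose at P21 (0.47) and P60 (0.66). Of 7 fatty acid binding proteins and their relatives tested at P21, 3 rose and 1 fell, and of 6 at P60, 3 rose and 1 fell. Fabp7, found in astrocytes and precursors, rose at P21 (0.86) and P60 (0.81). Fabp4 rose from low levels (1.59 and 3.32) and Crabp1 fell (-0.37 and -0.48), beside the differences of 0.06 and 0.18 for Fabp5.

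Of 9 genes of oxysterol synthesis and response, 4 rose and 3 fell at P21, and 3 rose and 1 fell at P60. Abca1, the cholesterol exporter induced by oxysterol receptors, rose from 1358 ± 233 to 4263 ± 796 at P21 (SD, n = 4, 1.65, limma adjusted p = 7.97e-07) and from 659 ± 83.1 to 4688 ± 179 at P60 (SD, n = 3, 2.84, limma adjusted p = 2.43e-08). Abcg1 also rose (0.24 and 0.63). Cyp27a1, sterol 27-hydroxylase, fell at P21 (-1.12) and at P60 (-1.45), so that this oxysterol enzyme and Ch25h moved in opposite directions. Cyp46a1 (-0.29) and Cyp39a1 (-0.48) fell at P21.

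Among 16 genes of lysosomal lipid handling, 9 rose and 0 fell at P21, and 10 rose and 0 fell at P60 by limma, in the compartment where the Lipa product works. Among them Hexa (1.31 and 1.56), a lysosomal hexosaminidase gene, Psap (0.35 and 0.52), which encodes the saposin precursor, and the lysosomal membrane gene Lamp2 (0.38 and 0.46) rose at both ages. Of 14 fatty acid oxidation and PPAR genes, 1 rose and 0 fell at P21 by limma, and 5 rose and 1 fell at P60, with the carnitine carrier Slc25a20 higher at both (0.24 and 0.36). Cpt1a (0.26) and Hadhb (0.34) rose at P60. Of 11 hypoxia-inducible genes, a group to which Hilpda belongs, 3 rose and 0 fell at P21, and 3 rose and 1 fell at P60. Hk2, a hexokinase, rose (1.84 and 1.74), as did Adm (0.58 and 0.84), Pdk1 at P21 (0.45) and Egln3 at P60 (0.34), and Egln1 fell at P60 (-0.24).

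The medians of the 9 lists ran from -0.05 (lipolysis) to 0.48 (fatty acid binding proteins) at P21, beside -0.01 over all genes tested, and from -0.01 (lipolysis) to 0.39 (lysosomal lipid handling) at P60, beside 0.00329. Some of the smaller changes were not stable to the choice of processing. Aup1, Rab18, Fabp4, Pdk1, Adm, Crabp1 and Slc25a20 lost their P21 call, and Plin5, Aup1, Acsl3, Fabp7 and Abhd5 their P60 call, in at least 1 alternative. Among these, Aup1, Fabp4 and Pdk1 lost it without P21 cHET replicate 1, and Acsl3, Aup1 and Plin5 without P60 cHET replicate 2. The number of called droplet coat genes ran from 2 to 5 at P21 and from 0 (without P60 cKO replicate 2) to 4 at P60, that of fatty acid oxidation genes from 0 (without P21 cHET replicate 2 or cKO replicate 2) to 4 at P21 and from 3 to 6 at P60, and that of hypoxia-inducible genes from 1 to 5 at P21. For the fatty acid binding proteins it ran from 2 to 4 at P21 and from 1 (without P60 cKO replicate 1) to 4 at P60.

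**Figure D5:**
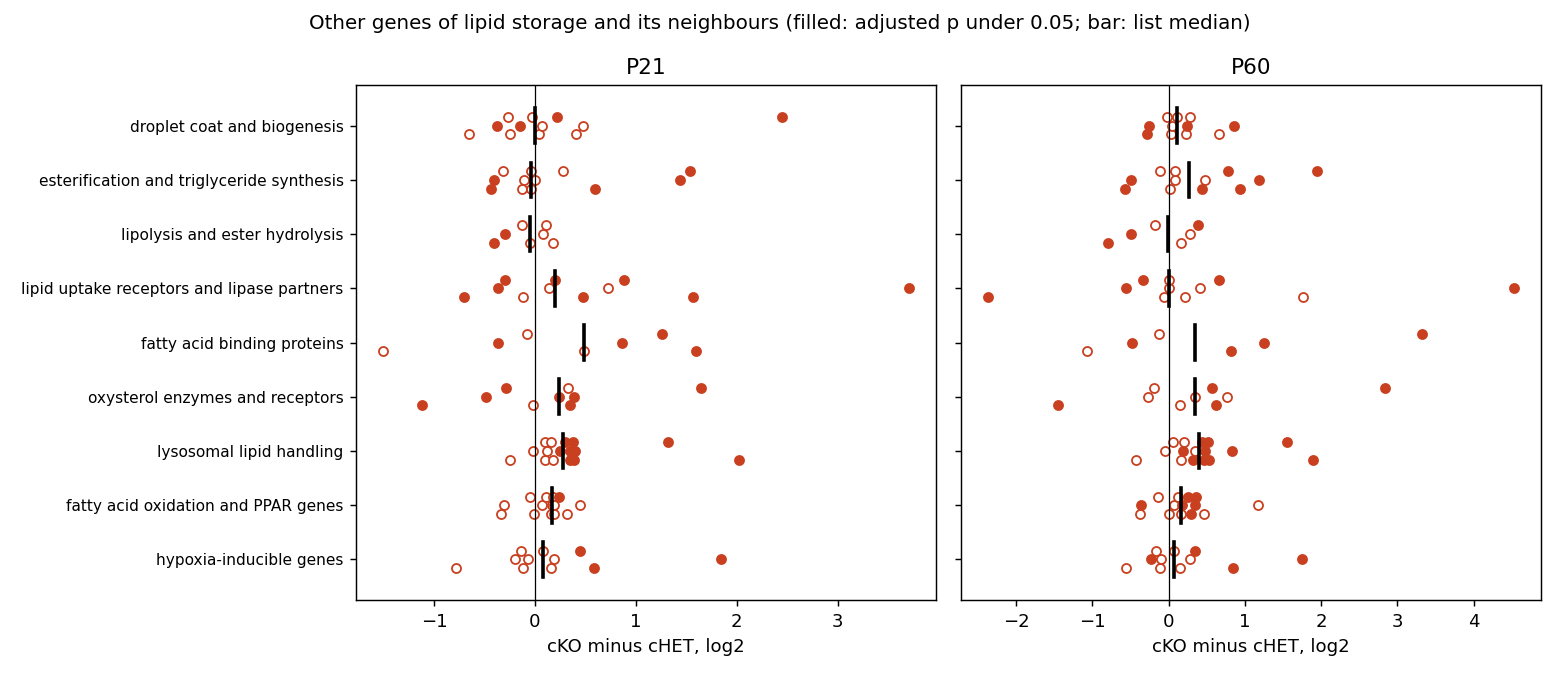
Log2 difference between cKO and cHET (horizontal axis) of each tested gene of 9 lists of lipid storage and neighbouring steps, at P21 and P60, with filled points for a limma adjusted p under 0.05 and bars for list medians. Most lists hold called genes on both sides of 0, while in lysosomal lipid handling all called genes lie to the right at both ages. At P21 those of fatty acid oxidation and of hypoxia also lie only to the right, and those of lipolysis only to the left.

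The genes most like each member were taken by Pearson correlation over the 21 libraries, with log2 values centred on the mean of their age, among 16570 genes. These values describe libraries that share genotype groups, kit and sequencing, and carry no test. Among the nearest to Lpl were Csf1r (r = 0.993) and Man2b1 (0.992), and nearest to Plin2 were Fmod (0.988), Hpgd (0.986) and Colec12 (0.985). Ch25h was nearest to H2-K1 (0.978), Gusb (0.975) and Fcer1g (0.974), and Lipa to Ccnd1 (0.974), Rgcc (0.962) and Itgb1 (0.962). Pnpla2 was nearest to Phactr3 (0.950), Armc5 (0.940) and Sult1a1 (0.934), and Soat1 to Olfr110 (0.919), Sdcbp (0.896) and Fchsd2 (0.892). Fabp5, with Faap20 (0.887), Ost4 (0.837) and Tma7 (0.835), and Hilpda, with Ptp4a3 (0.782), Dgkd (0.725) and Kmt2b (0.718), had the loosest neighbours. Among the 8 genes themselves, Lpl, Plin2 and Ch25h ran closest together (r of 0.949 to 0.976), and Hilpda had its highest value with Pnpla2 (0.365).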

How the data were processed

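RNA of frozen spinal cord was extracted with Trizol, and library kits were Illumina TruSeq RNA Sample Prep at P21 and NEXTflex Rapid Directional RNA-Seq at P60, per the labels. The deposited per-library signal is the authors' normalized scaled reads per base. Per the submitters' processing notes, kallisto 0.43.0, sleuth 0.28.1 and GRCm38 were used, and the sources used here give neither their roles nor the annotation release. The authors' deposited tables hold effects on the natural log scale, divided here by the natural log of 2, with each gene's p-value and q-value, used as deposited. For all 8 genes with per-library values the means equal those of the authors' tables. Read counts were not used, so depth is unknown and no counting interval is given.

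The members and gene lists were chosen with earlier results of these data known, and motifs and the test of sex differences were added after values were seen. Values were taken to log2(value + 0.5), on which scale fold differences of low genes are understated. Fold changes are ratios of group means, so a fold and a log2 difference need not match exactly. A gene had to reach 5 in 4 or more P21 libraries, or in 3 at P60. Each age was fitted with its 3 genotypes in limma 3.58.1 (limma-trend, R 4.3.3, 2-sided), and p-values were adjusted over all tested genes by Benjamini-Hochberg with a threshold of 0.05. The SE is limma's moderated standard error and intervals are 95%. The age difference is the interaction in a fit of all 6 groups. The fit was tested on simulated data. Genes named beside the members are Tardbp, of each list up to 4 called genes with the smallest p at P21 and up to 3 at P60 in cKO against cHET, and the 3 genes nearest to each member, and some genes that this rule selects are not reported here. Cell type markers were taken from hand-written lists, and those bearing on the members are given. Alternatives were pseudocounts of 5 and 0.05, testing all genes or those with a mean of 50 or more, scaling by median ratios, quantile normalization, array weights, robust moderation, sex as a covariate at P21, fits of 2 or of all 6 groups, the authors' test, and each library left out in turn. Chosen after seeing the data were a fit of genes equal in both kinds of file and the joint removal of libraries that stood apart.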

Additional observations from a re-analysis of the deposited data

Results flagged for a closer look

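The effect of the knockout on Lipa differed between the ages. On the log2 scale the cKO difference from cHET was greater at P60 than at P21 by 0.62 (SE 0.14, limma adjusted p = 0.0180), and the difference from controls by 0.60 (SE 0.14, limma adjusted p = 0.0169). At P60 all 3 cKO libraries (1350.0, 1327 and 1181 reads per base) stood above the highest cHET library (682), while at P21 cKO replicate 1 (2000.4) stood beside the highest cHET library (1993). Age, kit and scaling differ together here and cannot be told apart, and both calls depended on P60 cKO replicate 1.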

How the results depend on the processing

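The differences of Lpl, Plin2 and Ch25h between cKO and either other genotype kept their direction and their side of the threshold in every alternative run at P21 (25 each) and P60 (22 each, 21 for Ch25h, which has no P60 value with a mean of at least 50, nor has Hilpda). The calls that did not hold for Soat1, Lipa and Pnpla2 are given with those genes. Under quantile normalization Fabp5 passed in cKO against cHET at P21 (0.16, adjusted p = 0.0435) and P60 (0.20, 0.0285) and against controls at P21 (0.19, 0.0146), and Soat1 at P21 did not (0.49, 0.0820). That scaling turned the calls over all genes in cKO against control from 2620 higher and 2214 lower to 2313 and 3002 at P21, and from 2435 and 1925 to 2160 and 2620 at P60. No scaling moved the median of all genes by over 0.1. For the age difference of cKO against cHET, 1 member was called as smaller at P60 with a pseudocount of 5 (Ch25h, -1.81, adjusted p = 0.0244), against 0, and leaving out single libraries gave 0 to 1 called as smaller and 0 to 1 as greater. For that of cKO against control the counts ran from 0 to 1 in each direction too. With the 3 libraries that stood apart left out, 0 members were called in either age difference. The cause of these changes was not tested. Values of cHET against control changed sign near 0 when single libraries were left out. These ranges were, at P21, -0.083 to 0.019 for Lpl, -0.031 to 0.054 for Lipa and -0.030 to 0.65 for Ch25h, and at P60 -0.17 to 0.13 for Lpl, -0.024 to 0.20 for Plin2, -0.031 to 0.040 for Lipa and -0.22 to 0.081 for Hilpda. For Hilpda in cKO against cHET at P60 the range was -0.27 to 0.080. For the age difference of cHET against control they were -0.14 to 0.16 for Lpl, -0.25 to 0.029 for Soat1, -0.057 to 0.027 for Lipa, -0.23 to 0.025 for Pnpla2 and -0.12 to 0.18 for Hilpda, and of cKO against control -0.011 to 0.29 for Soat1, -0.19 to 0.037 for Plin2 and -0.11 to 0.015 for Fabp5. Without P60 control replicate 1 and P60 cHET replicate 2 together, cHET against control at P60 gave 0.051 for Lpl, -0.087 for Plin2 and -0.042 for Pnpla2. Array weights gave -0.021 for Lpl and -0.060 for Hilpda in the age difference of cHET against control, and without the 3 libraries that stood apart Ch25h gave -0.047 there. Without P21 cHET replicate 1 the sex difference of cKO against cHET was 0.34 for Ch25h and -0.15 for Hilpda. No paired analysis was possible because the labels give each mouse its own number and no replicate number shared between groups. The precision is limited by 3 or 4 mice per group and unknown read depth.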

Other observations

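Ch25h and Lipa lie 17153 bases apart on chromosome 19 (GRCm38), and the interferon-induced Ifit genes lie on the other side of Lipa. This neighbourhood was chosen after the positions of both genes were seen. In cKO against cHET at P21, Ifit2 (log2 difference 0.84, limma adjusted p = 0.00429), Ifit3 (1.68, limma adjusted p = 0.00761), Ifit3b (1.16, limma adjusted p = 0.0261) and Ifit1 (1.48, limma adjusted p = 0.0161) rose along with Ch25h (4.57) and Lipa (0.34). Ifit1bl1 (-0.07) and Ifit1bl2 (0.12) did not pass. Ifit3 ranged from 537 to 2086 reads per base in the P21 cKO libraries and from 233 to 457 in cHET. At P60, where Ch25h (2.69) and Lipa (0.95) rose, the same Ifit genes did not pass the test, with 0.22 for Ifit2, -0.06 for Ifit3, 0.17 for Ifit3b and -0.34 for Ifit1. The P60 cHET libraries were widely spread, with Ifit3 from 222 to 752, beside 307 to 390 in cKO. Against P60 controls these Ifit genes did not pass either. Every cKO library lay above every control library for Ifit2 (0.33), Ifit3 (0.63) and Ifit3b (0.59), and not for Ifit1 (0.31). The share of all genes that did so against P60 controls was not counted. Against P60 cHET it was 20.6%. The P60 controls also differed from cKO in sex and age. Whether the age difference of the Ifit genes passes a test was not examined.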
